A study of Homo sapiens with 8 samples.

Results

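The comparison described here is that of JIB-04 with DMSO after 24 h in AML-OCI3 cells, an established line from human acute myeloid leukaemia. Its members were the 2 libraries labelled JIB-04 and the 2 labelled DMSO at 24 h, 4 of 8 libraries in all. Genes of the 24 h table were tested where they were also in the 48 h table and passed a count filter. The cells had received DMSO, the vehicle, or 40 nM JIB-04, an inhibitor of Jumonji (JmjC) histone lysine demethylases, and poly(A) RNA was sequenced after 24 h. The other 4 libraries were the same treatments at 48 h. They entered the fit to share the estimate of the spread, and no library belongs to both times. The 48 h libraries also entered the choice of tested genes and the mean against which GC trends were taken. Each group is 1 cell line in culture, and the labels do not say whether replicates came from separate cultures. What the p-values measure is then the spread between these samples alone, and it may be technical.

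JmjC demethylases remove methyl groups from histone lysines and need iron, oxygen and 2-oxoglutarate to do so. Cells answer many disturbances of protein folding or of nutrient supply through the unfolded protein response of the endoplasmic reticulum (ER) and through the integrated stress response. In the first, the sensors IRE1 and PERK and the factor ATF6 raise ER chaperones. In the second, phosphorylation of the translation factor eIF2 favours translation of ATF4, a transcription factor that drives amino acid synthesis, import and tRNA charging.

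Library totals at 24 h were 20044296 and 21556709 counts for DMSO, 21186278 and 19626928 for JIB-04, so 3 counts corresponded to 0.139 to 0.153 CPM, the count scaled to a common library size. All 14 markers of myeloid leukaemia cells were detected, with summed levels of 1489 and 1595 CPM in DMSO and 1603 and 1570 CPM under JIB-04. Of the markers of other cell types, those of epithelial cells summed to 0.153 to 0.425 CPM and those of fibroblasts to 1.68 to 2.22 CPM. Markers of T and NK cells summed to 205 to 259 CPM, mostly from CD4 (197 to 251 CPM), with NCAM1 at 7.29 to 8.23 CPM. The defining T cell gene TRAC had 1 count over the 4 libraries and COL1A1, a fibroblast collagen, likewise 1. Other fibroblast markers had more, with 22 to 29 counts a library for COL1A2 and 9 to 18 for PDGFRB. Erythroid markers summed to 6.54 to 7.7 CPM, mostly from EPOR (6.44 to 7.7 CPM). Megakaryocyte markers summed to 4.13 to 5.29 CPM, and those of B and plasma cells to 0.649 to 0.974 CPM.

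The replicates of 24 h differed along the GC content of genes. Over 11911 genes, whose values are not independent of each other, the difference of replicates (2 minus 1) had a Spearman's rho with GC content of 0.782 in DMSO and -0.852 with JIB-04. Among the GC-richest genes (above 61.3% GC) the trend was -0.46 and 0.39 log2 units for DMSO, 0.24 and -0.20 for JIB-04, so the groups overlapped in it. Removing each library's own trend lowered the SD of the log2 replicate difference from 0.432 to 0.255 in DMSO and from 0.338 to 0.197 with JIB-04. The levels below are CPM after this removal, given for DMSO replicates 1 and 2 and then JIB-04 replicates 1 and 2. A GC trend shared by all libraries of a group, whatever its source, is removed too.

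**Figure D1:**
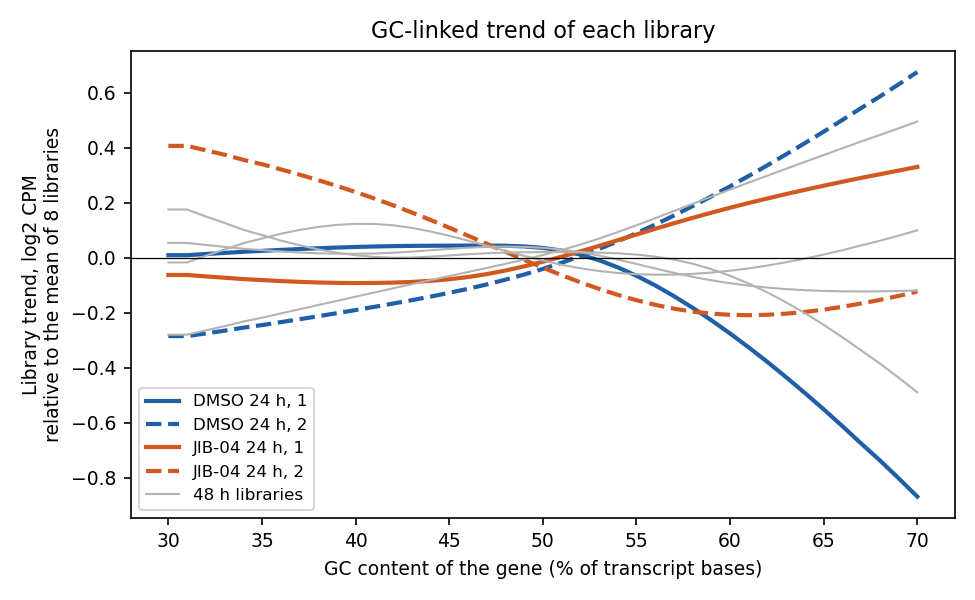
Smooth trend of log2 CPM on GC content (x axis, %) in each library, relative to the mean of 8 libraries, with the 24 h libraries in colour and the 48 h libraries in grey. Among GC-rich genes DMSO replicate 1 lies lowest and DMSO replicate 2 highest at 24 h, with the JIB-04 libraries between them.

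With the GC trends removed, 2039 of 15248 tested genes passed at 24 h (13.4%; edgeR quasi-likelihood test, Benjamini-Hochberg adjusted p under 0.05). Of these, 1058 were higher with JIB-04 (6.94% of tested genes) and 981 lower (6.43%). Counts of list members below are to be read against these shares. Most changes were small. The median size was 0.34 on the log2 scale, 84.6% of the passing genes changed by less than 1.5-fold, and 98 changed by at least 2-fold, 56 up and 42 down. The libraries of the groups did not overlap for any of the 2039, as for 54.5% of all tested genes.

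The adjustment decided these calls. Without it edgeR passed 0 genes (smallest adjusted p = 0.0841), with 1647 at an unadjusted p under 0.05 against 4361 with it. The direction without it was the same for 2034 of the 2039 genes. When only the trends within groups were removed, 2574 genes passed, 67.9% of them higher, against 51.9% higher above. DESeq2 on the same adjusted data passed 555 genes higher and 824 lower. The count fell to 926 without JIB-04 replicate 1 and to 617 without JIB-04 replicate 2. List counts given below without a library are to be read beside this drop over all tested genes. A core of 417 genes, 257 higher and 160 lower, passed in the same direction under each of 16 alternatives that kept a GC adjustment. In the authors' deposited table, 23 genes had an adjusted p under 0.05 at 24 h, and 22 of them passed here in the same direction. Both comparisons rest on the same 4 libraries, so this overlap is not independent. Most genes named below, such as SLC7A11 and SAT1, did not pass there.

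**Figure D2:**
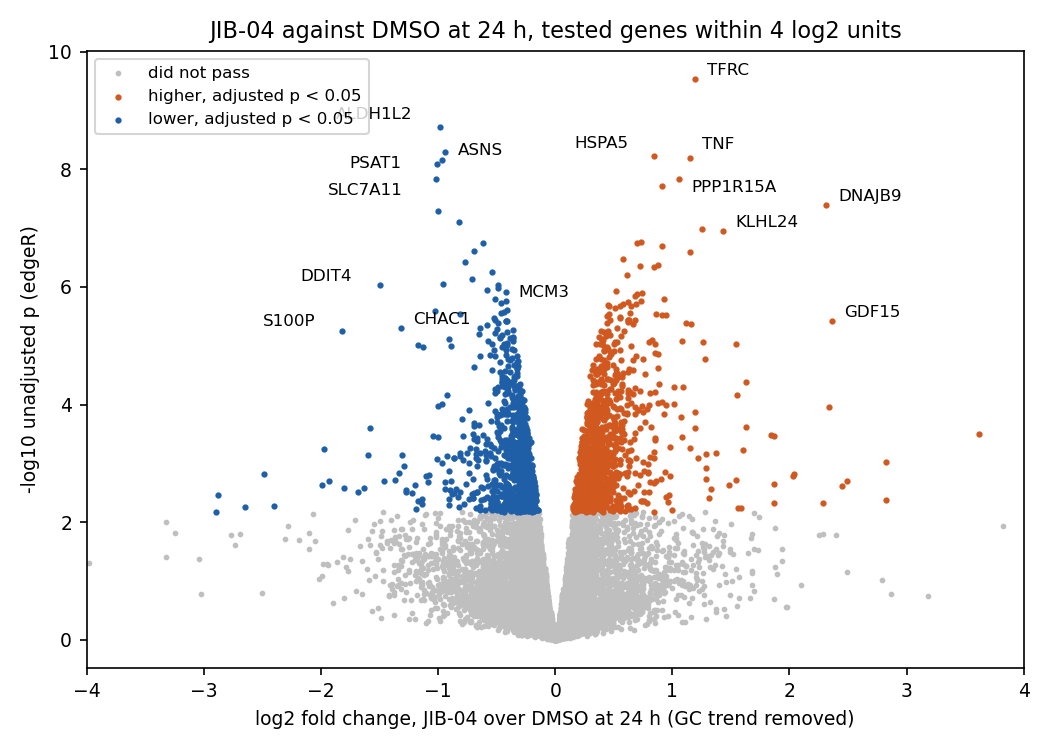
Each tested gene by its log2 fold change at 24 h (x axis) and its unadjusted p as -log10 (y axis), coloured where the adjusted p was under 0.05; genes beyond 4 log2 units are not drawn. TFRC lies highest, and the genes of serine and asparagine synthesis ALDH1L2, ASNS and PSAT1 are among the highest on the left.

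The gene with the smallest p was TFRC (chr3:196027183-196082189, hg38, GENCODE 29), the transferrin receptor that brings iron into the cell. Its levels were 215 and 209 CPM in DMSO and 467 and 499 with JIB-04, a rise of 1.19 ± 0.05 on the log2 scale (SE; edgeR adjusted p = 4.4e-06). Both treated libraries stood at more than 2-fold the DMSO libraries. TNF (chr6:31575567-31578336), an inflammatory cytokine, was at 28.4 and 29.1 CPM in DMSO and 65.6 and 61.6 with JIB-04 (1.15 ± 0.06; adjusted p = 1.7e-05). SLC22A15, a solute carrier, was at 57.0 and 51.8 and then 101 and 104 CPM (0.91 ± 0.06; adjusted p = 3.0e-05). TFRC, TNF and SLC22A15 were named for their small p, a choice that favours close replicates and groups far apart. Among genes with a mean log2 CPM of at least 1, the largest rise was that of GDF15, a secreted stress cytokine, which was scarce. It went from 0.362 and 0.565 to 2.63 and 2.34 CPM (2.36 ± 0.26; edgeR adjusted p = 0.000766). Other large rises were those of the hyaluronan-binding CEMIP (1.25 ± 0.09), the signalling factor STAT5A (1.54 ± 0.19), the glutamate transporter SLC1A3 (1.28 ± 0.17) and the membrane glycoprotein PDPN (1.55 ± 0.24). RGPD6 also rose (2.34 ± 0.38), but it belongs to a family of near-identical copies that counting may split.

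The largest fall in the same range of levels was that of S100P, a calcium-binding protein, from 2.17 and 2.38 CPM in DMSO to 0.633 and 0.650 with JIB-04 (-1.82 ± 0.21; edgeR adjusted p = 0.000941). CCL2, a monocyte chemokine, fell by 1.03 ± 0.11, from 80.8 and 74.1 to 41.8 and 33.9 CPM. APOBEC3B, a cytidine deaminase, fell by 1.13 ± 0.14 and the lncRNA LINC01127 by 1.17 ± 0.14. The groups of each of these genes stood apart. VLDLR, a lipoprotein receptor, fell by 1.00 ± 0.07, and the antisense VLDLR-AS1 by 1.04 ± 0.20; no source used here says if counting was stranded, and reads of this pair may not be told apart. Without JIB-04 replicate 2 the adjusted p of VLDLR-AS1 was 0.068. NUTM2A, CHRFAM7A, SPDYE2 and the pseudogene WDR45P1 were also among the 15 largest falls, and each has close copies that make its counts uncertain. These 4 and NDUFA4L2 lost their calls when a library was left out, with adjusted p up to 0.22 for NDUFA4L2 without JIB-04 replicate 1.

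**Figure D3:**
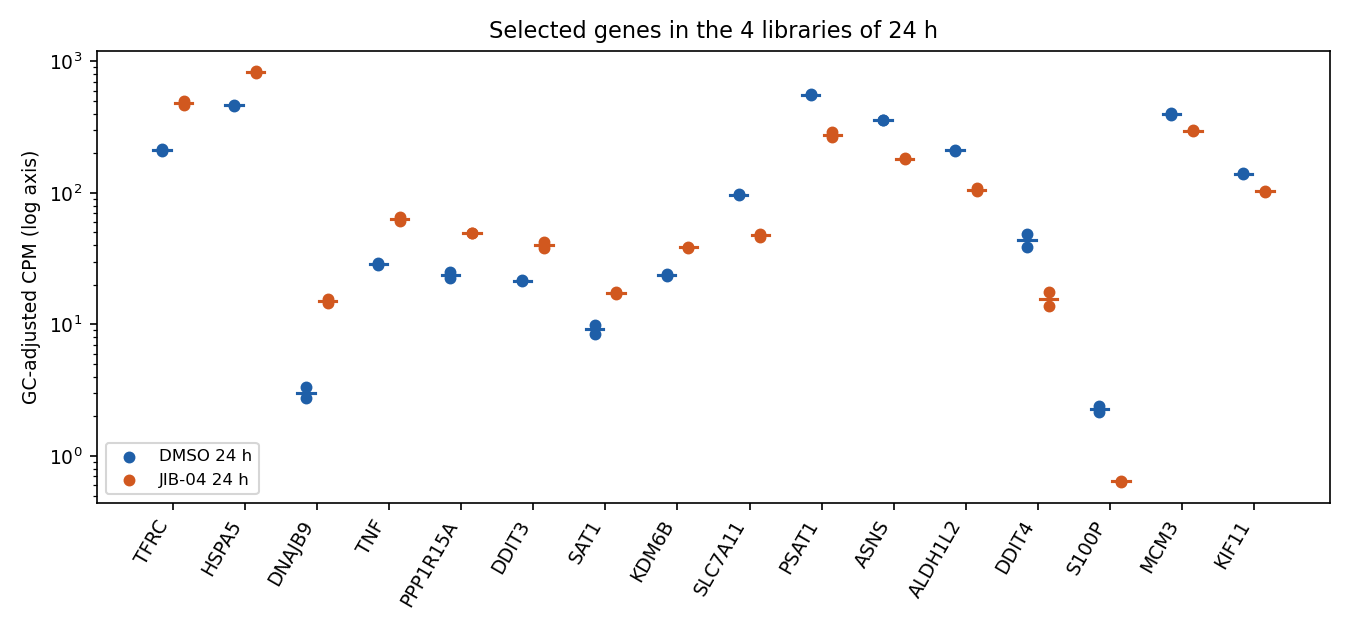
GC-adjusted CPM (y axis, log scale) of 16 genes in the DMSO (blue) and JIB-04 (orange) libraries of 24 h, 1 point a library, with a bar at the mean of 2. In each of the 16 genes the 2 groups do not overlap.

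Genes that make amino acids fell together. Of 24 tested genes of serine, glycine, one-carbon and asparagine synthesis, 15 fell and 0 rose, with a median log2 change of -0.37 against -0.01 over all tested genes. PSAT1 (chr9:78297143-78330093), which makes phosphoserine, was at 562 and 553 CPM in DMSO and 291 and 264 with JIB-04 (-1.01 ± 0.06; edgeR adjusted p = 1.8e-05). ASNS, asparagine synthetase, was at 359 and 356 and then 184 and 181 CPM (-0.97 ± 0.06; adjusted p = 1.7e-05). ALDH1L2 (chr12:105019784-105084577), a mitochondrial folate enzyme, was at 213 and 207 and then 108 and 104 CPM (-0.98 ± 0.05; adjusted p = 1.4e-05). The treated libraries of these genes lay close together and below both DMSO libraries, which their choice by small p favours. PHGDH, the first enzyme of serine synthesis, fell by 0.77 ± 0.07, and PSPH, its last, by 0.64 ± 0.07. ASS1, which makes argininosuccinate, fell by 0.71 ± 0.07, from 334 and 298 to 203 and 184 CPM. Of other mitochondrial folate enzymes, MTHFD2 fell by 0.33 ± 0.05 and SHMT2 by 0.31 ± 0.05. PCK2, the mitochondrial enzyme that makes phosphoenolpyruvate, fell by 0.94 ± 0.05, from 213 and 201 to 110 and 105 CPM. Without JIB-04 replicate 2, 10 of the 24 passed.

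Genes of amino acid import and tRNA charging were lower in part. Of 25 tested amino acid transporters 7 fell and 2 rose, or 5 and 1 without JIB-04 replicate 2. SLC7A11 (chr4:138164097-138242349), which imports cystine for glutathione synthesis, went from 97.6 and 95.6 to 48.9 and 46.2 CPM (-1.02 ± 0.06; edgeR adjusted p = 2.5e-05). Its log2 change was -0.80 without the GC adjustment. SLC38A1, a glutamine carrier, fell by 0.62 ± 0.05, SLC1A5, another, by 0.49 ± 0.05, and the glycine carrier SLC6A9 by 0.89 ± 0.11. The leucine carrier SLC7A5 fell by 0.45 ± 0.06 and its partner SLC3A2 by 0.33 ± 0.06, while the glutamate carrier SLC1A3 was among the rises. Of 24 cytosolic aminoacyl-tRNA synthetases, which load tRNAs, 12 fell and 0 rose (median -0.17). WARS1 fell by 0.69 ± 0.06, from 490 and 482 to 318 and 285 CPM, MARS1 by 0.54 ± 0.05, GARS1 by 0.51 ± 0.06, CARS1 by 0.44 ± 0.05 and TARS1 by 0.36 ± 0.04. Of 17 mitochondrial synthetases 2 fell, among them IARS2 by 0.23 ± 0.05, with an adjusted p of 0.10 without JIB-04 replicate 2. For comparison with later cells, the same lists at 48 h had 13 of 24 synthesis genes and 13 of 24 cytosolic synthetases lower (5.02% of all tested genes were lower at 48 h, 5.68% higher).

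The promoter of ASNS carries the C/EBP-ATF amino acid response element through which ATF4 is known to act. The element was looked for in up to 4 genes of each list, those with the smallest p in these data. The sequences are shown for that reason. The search was for TGATGNAA on both strands, from 250 bases before to 50 after the RefSeq start (GRCh38.p14). The element was found in 3 of 4 cytosolic synthetases looked at, in 1 of 3 transporters and in 1 of 3 synthesis genes. It was in 0 of 2 mitochondrial synthetases, and in 3.67% of 27305 promoters. Since the genes were chosen by their p, these shares do not describe the lists. The 250 bases before the start of ASNS (chr7:97872409-97872658, minus strand) are given with the element in capitals, followed by windows of the other genes, whose elements lie across or just after the start, on chr12:57488054-57488081, chr11:3057408-3057435, chr5:33440957-33440984 and chr12:46266503-46266530. MARS1 and TARS1 are read on the plus strand and CARS1 and SLC38A1 on the minus strand, and in MARS1, CARS1 and TARS1 the element is on the strand opposite to the gene. ALDH1L2, SLC7A11 and VARS2 were not matched.
ASNS: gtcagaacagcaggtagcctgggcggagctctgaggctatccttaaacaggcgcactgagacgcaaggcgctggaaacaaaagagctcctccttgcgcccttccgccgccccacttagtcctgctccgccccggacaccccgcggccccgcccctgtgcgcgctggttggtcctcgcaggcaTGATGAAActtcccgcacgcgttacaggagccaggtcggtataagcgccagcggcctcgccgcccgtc
MARS1: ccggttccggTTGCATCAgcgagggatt
CARS1: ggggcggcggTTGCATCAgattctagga
TARS1: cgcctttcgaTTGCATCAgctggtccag
SLC38A1: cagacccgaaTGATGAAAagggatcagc

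The regulators of the integrated stress response split. Of 21 tested, 4 rose and 4 fell. PPP1R15A, which directs dephosphorylation of eIF2, went from 25.1 and 22.7 to 49.6 and 49.9 CPM (1.06 ± 0.07; edgeR adjusted p = 2.5e-05). DDIT3, which encodes CHOP, went from 21.6 and 21.2 to 42.4 and 38.2 CPM (0.91 ± 0.07; adjusted p = 0.00016). GDF15 and the eIF2 kinase EIF2AK4 (0.26 ± 0.05) also rose, the kinase with an adjusted p of 0.058 without JIB-04 replicate 2. ATF4 itself was at 801 and 650 CPM in DMSO and 534 and 587 with JIB-04 (-0.37 ± 0.09; adjusted p = 0.021); without JIB-04 replicate 1 its adjusted p was 0.13. TRIB3, a pseudokinase that ATF4 induces, fell by 0.55 ± 0.11. Without JIB-04 replicate 2, 3 regulators were higher and 0 lower. A list of sestrins and restrainers of mTORC1 was mixed as well, with 7 of 20 higher and 6 lower. It also held genes of other roles, such as CHAC1, STC2 and VLDLR, all among the lower ones. Its median was 0.19, and 0.16 without JIB-04 replicate 2. DDIT4, an inhibitor of mTORC1, fell by 1.5 ± 0.14, from 38.6 and 48.7 to 13.8 and 17.6 CPM, CHAC1, which degrades glutathione, by 1.32 ± 0.15, and SESN2, a leucine sensor, by 0.82 ± 0.06. KLHL24 rose by 1.43 ± 0.11, from 10.2 and 8.41 to 25.9 and 24.4 CPM, and FNIP1, a partner of folliculin, by 0.93 ± 0.09. TSC1, a brake on mTORC1, rose by 0.45 ± 0.06 and TXNIP, which restrains glucose uptake, by 0.35 ± 0.05. STC2, a secreted glycoprotein, fell by 0.96 ± 0.09.

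Chaperones of the ER rose. Of 24 tested ER chaperones and folding enzymes, 11 rose and 0 fell, with a median of 0.25, and 8 rose without JIB-04 replicate 2. HSPA5 (chr9:125234853-125241330), the main ER chaperone BiP, was at 455 and 469 CPM in DMSO and 810 and 840 with JIB-04 (0.84 ± 0.05; edgeR adjusted p = 1.7e-05). DNAJB9, a cochaperone of HSPA5, was at 3.32 and 2.75 and then 14.5 and 15.7 CPM (2.31 ± 0.16; adjusted p = 5.6e-05). MANF, a secreted ER stress factor, rose by 0.95 ± 0.10 and ERO1B, an ER oxidase, by 1.16 ± 0.13. All 4 had their groups apart. Of other chaperones, HSP90B1 rose by 0.31 ± 0.06, from 776 and 759 to 915 and 984 CPM, HYOU1 by 0.41 ± 0.05 and PDIA4 by 0.32 ± 0.05. Of 14 regulators of the response, the sensor kinases ERN1 (0.80 ± 0.10) and EIF2AK3 (0.62 ± 0.13) rose, the latter with an adjusted p of 0.084 without JIB-04 replicate 2. XBP1, the factor that IRE1 splices, did not pass (-0.02 ± 0.06; 331, 298, 303 and 319 CPM); gene counts do not show its splicing. ER-associated degradation had 1 of 27 higher, SEL1L (0.27 ± 0.05), and 1 lower, VCP (-0.30 ± 0.05). That was 7.41% of the list, against 13.4% of all tested genes. In vesicle traffic between ER and Golgi 6 of 36 rose, against 1 without JIB-04 replicate 2.

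The ER stress element (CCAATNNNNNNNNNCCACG, both strands) was found in 22 of 27305 promoters (0.0806%). The 4 ER chaperone promoters looked at were those of the smallest p, so they do not describe the list. HSPA5 and ERO1B of these 4 had the element, DNAJB9 and MANF did not. A search for the UPR element TGACGTG, present in 2% of promoters, found it in none of these 4 and in VCP of 4 degradation genes. The 250 bases before the start of HSPA5 (chr9:125241344-125241593, minus strand) are shown, because this gene had the highest level of these 4, with the element in capitals.
HSPA5: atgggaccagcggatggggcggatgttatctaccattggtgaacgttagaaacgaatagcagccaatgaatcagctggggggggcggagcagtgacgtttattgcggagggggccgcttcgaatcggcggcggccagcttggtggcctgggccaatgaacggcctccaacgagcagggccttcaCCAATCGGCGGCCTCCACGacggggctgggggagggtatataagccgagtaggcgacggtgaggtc

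Of the iron genes, 5 of 20 rose and 0 fell, and 3 rose without JIB-04 replicate 2. Besides TFRC they were FBXL5, the iron-sensing ligase subunit (0.46 ± 0.05), STEAP3, an endosomal ferrireductase (0.35 ± 0.06), and the carriers SLC25A37 (0.31 ± 0.05) and SLC39A8 (0.26 ± 0.07). Without JIB-04 replicate 2 the adjusted p of SLC25A37 was 0.052. Ferritin did not pass. The heavy chain FTH1 was at 420, 360, 393 and 457 CPM (0.12 ± 0.09; edgeR adjusted p = 0.394), and the light chain FTL at 1315, 1256, 1364 and 1289 CPM (0.05 ± 0.05). Both have processed pseudogenes that may share reads. The ferroptosis lists, which share members with those above, had no common direction. Suppressors had 3 of 30 higher and 7 lower, and drivers 4 of 25 higher and 6 lower. Without JIB-04 replicate 2 the suppressors had 1 higher and 4 lower, and the drivers 3 higher and 3 lower. GPX4, which reduces lipid peroxides, did not pass (217, 158, 157 and 164 CPM; -0.22 ± 0.12), nor did ACSL4, which loads membranes with polyunsaturated lipids (215, 216, 207 and 206 CPM; -0.06 ± 0.05). SAT1, a polyamine acetyltransferase, rose by 0.91 ± 0.10, from 9.85 and 8.45 to 17.5 and 17 CPM. Among 35 NRF2 targets 4 rose and 3 fell (2 and 1 without JIB-04 replicate 2); SQSTM1, an autophagy receptor, rose by 0.72 ± 0.06 and MAFG by 0.37 ± 0.05, whereas HMOX1 did not pass (0.74 ± 0.28; adjusted p = 0.109).

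Genes of DNA replication and mitosis were lower. Of 45 tested G1/S and replication genes, 29 fell and 0 rose (median -0.28), and of 41 G2/M and mitosis genes 17 fell and 0 rose (median -0.19). In bulk RNA, fewer cells in a phase and less RNA per cell cannot be told apart. MCM3, a helicase subunit, was at 402 and 394 CPM in DMSO and 298 and 296 with JIB-04 (-0.42 ± 0.04; edgeR adjusted p = 0.000625). MCM6, another subunit, fell by 0.52 ± 0.06 and RRM2, which makes deoxynucleotides, by 0.49 ± 0.05. The mitotic motors KIF11 (-0.45 ± 0.05) and KIF20A (-0.51 ± 0.07) and NUSAP1 (-0.40 ± 0.06), which binds microtubules, also fell. TOP2A, which untangles DNA, fell by 0.31 ± 0.05, and the proliferation marker MKI67 by 0.30 ± 0.05. KIF11 was at 141 and 139 and then 102 and 103 CPM. The changes were modest but the groups stood apart. Leaving out JIB-04 replicate 2 left 11 G1/S genes, and leaving out JIB-04 replicate 1 left 7 G2/M genes. With the adjustment only within groups the medians were -0.25 and -0.11, with 26 and 13 genes lower. DNA repair had 11 of 39 lower and 1 higher, but 1 lower without JIB-04 replicate 2; BRCA1 fell by 0.35 ± 0.05 and the kinase ATM rose by 0.27 ± 0.05. Of the genes that steer the cycle, MYC rose by 0.43 ± 0.06, from 349 and 346 to 448 and 486 CPM, and the inhibitor CDKN1A did not pass (0.00 ± 0.10).

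**Figure D4:**
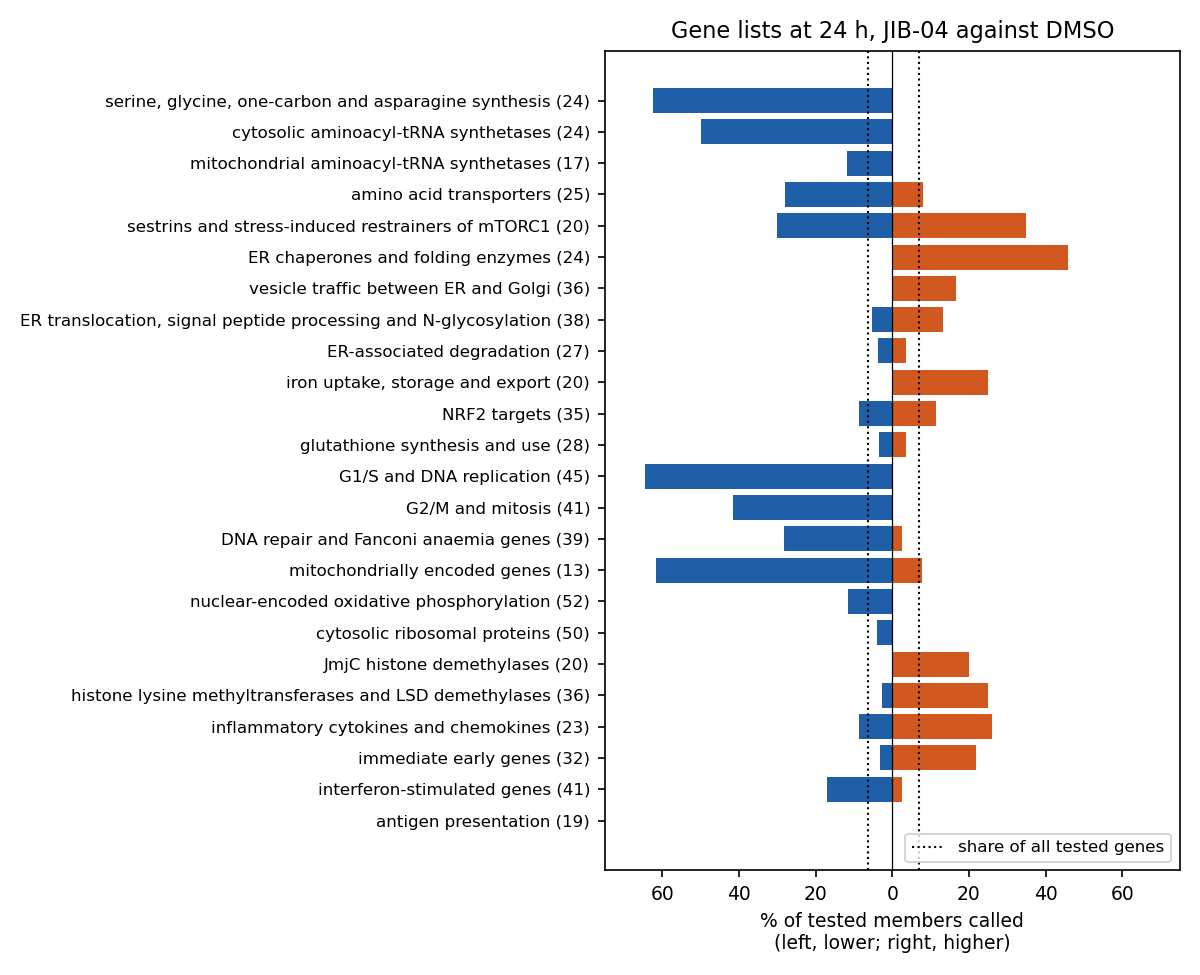
Share of tested members (number in brackets) of 24 gene lists that passed at 24 h, higher to the right in orange and lower to the left in blue; dotted lines mark the shares of all tested genes, 6.94% higher and 6.43% lower. The bars of amino acid synthesis, tRNA synthetases, G1/S, G2/M and mitochondrially encoded (protein-coding) genes extend to the left, and that of ER chaperones to the right.

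Of the BCL2 family, 1 of 5 anti-apoptotic genes rose and 0 fell, and of 13 pro-apoptotic genes 2 rose and 1 fell. Without JIB-04 replicate 2, 0 and 1 rose and none fell. The anti-apoptotic gene that rose was BCL2L2 (0.36 ± 0.10; edgeR adjusted p = 0.0369), with an adjusted p of 0.22 without JIB-04 replicate 2. BCL2 was at 227, 235, 252 and 247 CPM (0.11 ± 0.05; edgeR adjusted p = 0.174), and MCL1 at 235, 237, 230 and 253 CPM (0.03 ± 0.06); neither of these inhibitors of cell death passed. BCL2L1 (0.19 ± 0.11) and BCL2A1 (0.48 ± 0.17; adjusted p = 0.0979) did not pass. BCL2L11, the BH3-only killer BIM, rose by 0.51 ± 0.07, from 37.6 and 39.9 to 55.3 and 55.2 CPM. BAD rose (0.65 ± 0.19) and BMF fell (-0.50 ± 0.11), with an adjusted p of 0.15 and 0.081 without JIB-04 replicate 2. The p53 target BBC3 did not pass (0.32 ± 0.17). Of 28 p53 targets 5 rose and 1 fell (2 and 1 without JIB-04 replicate 2), the rises among them being TNFRSF10B, a death receptor (0.35 ± 0.04), and CCNG1 (0.42 ± 0.06).

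Of 20 tested JmjC genes, the class that JIB-04 inhibits, 4 rose and 0 fell, and 2 rose without JIB-04 replicate 2. KDM6B, an H3K27 demethylase, went from 24.1 and 23.4 to 38.1 and 39.0 CPM (0.70 ± 0.07; edgeR adjusted p = 0.00053), and KDM3A, an H3K9 demethylase, rose by 0.36 ± 0.06. KDM6A (0.14 ± 0.06), KDM5A (0.07 ± 0.05) and KDM4A (-0.08 ± 0.05) did not pass. Of 36 histone methyltransferase and LSD genes 9 rose and 1 fell, and 4 rose without JIB-04 replicate 1 or replicate 2. SETDB1, which methylates H3K9, rose by 0.37 ± 0.05, NSD3 by 0.32 ± 0.05 and KMT2C by 0.27 ± 0.05. EZH2, which methylates H3K27, was the gene that fell (-0.19 ± 0.05). TET3, which oxidises methylated cytosine, rose by 0.59 ± 0.07, from 78.5 and 85.4 to 117 and 129 CPM. These were increases of less than 2-fold.

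Inflammatory messengers rose in part. Of 23 tested cytokines and chemokines 6 rose and 2 fell (median 0.49). Besides TNF, CXCL1, a neutrophil attractant, rose by 0.95 ± 0.15, IL1B rose by 0.42 ± 0.05, and CXCL8, another attractant, by 0.62 ± 0.07, from 280 and 265 to 416 and 424 CPM. TNFAIP3, which limits NF-κB, rose by 0.62 ± 0.09. Immediate early genes had 7 of 32 higher and 1 lower: the transcription factor EGR1 rose by 0.53 ± 0.07 and PHLDA1 by 0.86 ± 0.09. Feedback inhibitors of MAPK had 6 of 20 higher, or 3 without JIB-04 replicate 2, with DUSP4, a phosphatase, rising by 1.08 ± 0.13. Interferon-stimulated genes had 7 of 41 lower and 1 higher, and 2 lower without JIB-04 replicate 2. The antiviral genes MX1 and OAS1 fell by 0.43 ± 0.10 and 0.43 ± 0.09, MX1 from 10.2 CPM in both DMSO libraries to 7.34 and 7.83 CPM.

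Among myeloid transcription factors 7 of 29 rose and 2 fell, and without JIB-04 replicate 2, 4 rose and 0 fell. ETV6 rose by 0.37 ± 0.04, BCL6 by 0.65 ± 0.10 and RUNX2 by 0.35 ± 0.05. Of 25 HOX genes and their MEIS and PBX partners 3 rose and 2 fell, and without JIB-04 replicate 2, 1 rose and 0 fell. PBX3, a HOX partner, rose by 0.54 ± 0.08, from 44.8 and 48.8 to 64.2 and 72.0 CPM. HOXA9 rose by 0.25 ± 0.06, with an adjusted p of 0.13 without JIB-04 replicate 2, and PBX2 by 0.20 ± 0.06, with one of 0.25. HOXB9 fell by 0.44 ± 0.13, from 35.4 and 29 to 21.9 and 25.6 CPM. HOXA7, at 1.45 and 1.67 and then 0.652 and 0.733 CPM, fell by 1.17 ± 0.32, with an adjusted p of 0.17 without JIB-04 replicate 1. Myeloid surface and granule genes had 6 of 34 lower and 1 higher, but 2 lower and 0 higher without JIB-04 replicate 2. CTSG, a granule protease, fell by 0.45 ± 0.06, from 1411 and 1518 to 1120 and 1032 CPM. FCGR1A, a receptor for IgG, fell by 0.44 ± 0.07, and CD33, a sialic acid-binding receptor, rose by 0.21 ± 0.05.

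Of the protein-coding genes of the mitochondrial genome, 8 of 13 were lower and 1 higher (median -0.31, or -0.24 without the GC adjustment), and 6 were lower without JIB-04 replicate 2. MT-ND2 was at 3790 and 3751 CPM in DMSO and 2845 and 2793 with JIB-04 (-0.42 ± 0.04; edgeR adjusted p = 0.000509), MT-CO3 fell by 0.46 ± 0.05, and MT-ND4 rose by 0.19 ± 0.04. The ribosomal RNAs of this genome, which are not in the list and are named after their values were seen, went the other way. MT-RNR1 rose by 0.70 ± 0.06, from 688 and 652 to 1129 and 1051 CPM, and MT-RNR2 by 0.39 ± 0.05, from 9751 and 9684 to 12591 and 12867 CPM. Both passed under each of the 16 alternatives that kept a GC adjustment. The share of all counts from this genome, without adjustment, was 7.22% and 6.30% for DMSO, 6.55% and 7.23% for JIB-04, so it overlapped between groups. Among nuclear genes of oxidative phosphorylation 11.5% passed, against 13.4% of all tested genes. Nuclear genes of oxidative phosphorylation had 6 of 52 lower and 0 higher (median -0.11), and 2 lower without JIB-04 replicate 1 or replicate 2. Of 28 genes of fatty acid metabolism 1 rose and 6 fell, and 0 rose and 3 fell without JIB-04 replicate 2. SCD, which desaturates fatty acids, fell by 0.33 ± 0.04, and CPT2, which acts in their import into mitochondria for oxidation, by 0.54 ± 0.07. Protein-coding genes passed more often (15.3% of 12374) than lncRNAs (5.28% of 1933).

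At 48 h the same fit passed 1631 genes (10.7%), 866 higher (5.68%) and 765 lower (5.02%). Of the 24 h calls, 28.5% were also called the same way at 48 h, and of the 48 h calls 35.7% at 24 h. The difference of the effects was called for 323 genes (2.12%), 145 with a higher effect at 24 h (0.951%) and 178 with a lower one (1.17%), and 209 of the 2039 genes were among them. TFRC rose more at 24 h than at 48 h (1.19 against 0.59; difference 0.60, edgeR adjusted p = 0.00774), as did TNF (1.15 against 0.35) and DNAJB9 (2.31 against 1.25). PPP1R15A rose less at 24 h (1.06 against 1.99), as did DDIT3 (0.91 against 1.52), and FTH1 changed by 0.12 at 24 h and 1.18 at 48 h (difference -1.06; adjusted p = 0.00774). Of the G1/S genes 16 of 45, of the G2/M genes 18 of 41 and of the mitochondrially encoded protein genes 12 of 13 had a lower effect at 24 h than at 48 h, where 3, 13 and 7 of them were higher. At 48 h MCM3 was at 292 and 289 CPM in DMSO, 300 and 290 CPM under JIB-04, close to the JIB-04 level of 24 h and below the DMSO level of 24 h. Likewise KIF11 was at 93.5 and 102 and then 104 and 108 CPM at 48 h. These differences were fragile: 4 genes passed with limma-voom, 10 without DMSO replicate 1 of 48 h, 12 without DMSO replicate 2 of 48 h and 60 without JIB-04 replicate 2 of 24 h.

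**Figure D5:**
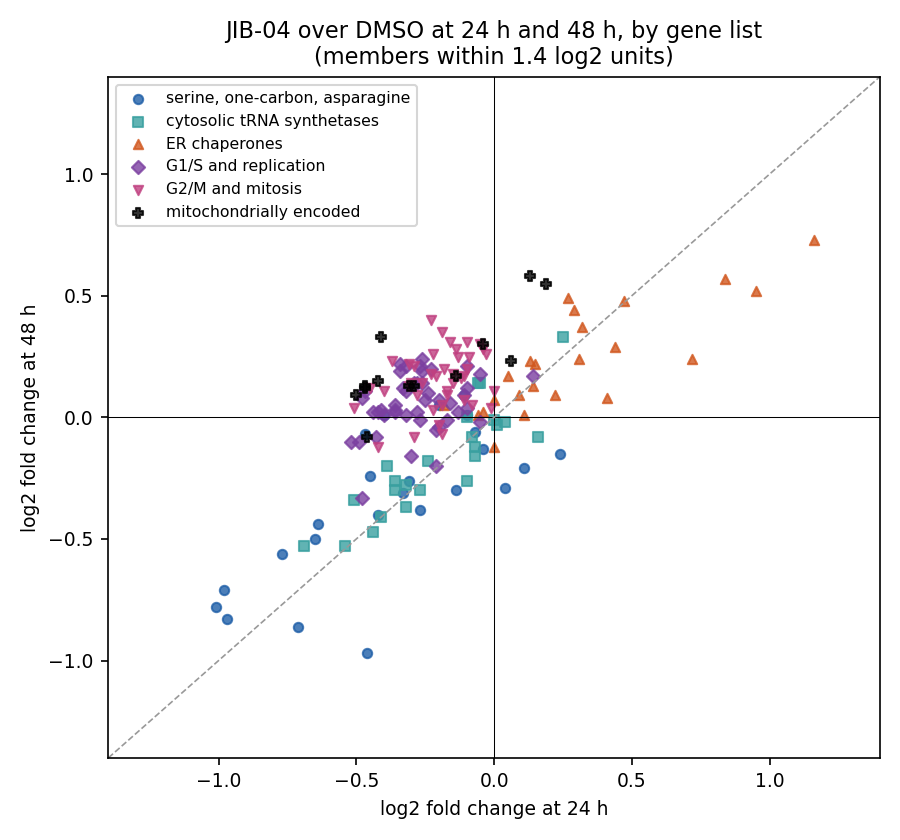
Log2 fold change of JIB-04 over DMSO at 24 h (x axis) and at 48 h (y axis) for the members of 6 gene lists, with equality as a dashed line; DNAJB9, at 2.31 and 1.25, lies outside the axes. Genes of amino acid synthesis and tRNA charging lie along the line on the lower left, and G1/S, G2/M and mitochondrially encoded (protein-coding) genes lie mostly left of zero and mostly above it on the y axis.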

How the data were processed

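Poly(A) RNA of 8 AML-OCI3 libraries was measured, 2 for each of 4 groups of treatment and time. The authors' deposited tables hold an expected count per gene and library, as whole numbers with no further normalization, and a TPM value, per the file headers. They also give the authors' deposited log2 fold change and p-value per gene. The submitters' processing notes name cutadapt, STAR 2.6.1, RSEM and hg38. The annotation, the use of strand in counting and the tool behind the authors' comparison are in none of the sources used here. TPM values were not used.

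The members and gene lists were chosen with earlier results of these data known. The 24077 genes in both tables were used; the 3006 in the 24 h table alone held 0.00619% of its counts. Filtering (edgeR filterByExpr, minimum count 10) left 15248 genes. In edgeR 4.0.16 under R 4.3.3 all 8 libraries were fitted with TMM scaling, 1 mean a group and 4 residual degrees of freedom. Offsets removed each library's trend on GC content (natural spline, 5 degrees of freedom). GC content came from the bases of each gene's GENCODE 29 transcripts, since no genome was used here, and 12 genes had none. The quasi-likelihood F test was two-sided, with Benjamini-Hochberg adjustment over all tested genes. The fit was tested on simulated data. Named genes were the 15 largest rises and 15 largest falls, the 10 smallest p, up to 4 genes of each list by p, the 5 largest differences between times each way, and a set always reported; others in the text are list members, and some members are not reported here. Of 192 named genes that passed, 110 passed without each 24 h library in turn. Alternatives included limma-voom (limma 3.58.1) and DESeq2 1.42.0. Promoters came from RefSeq (GRCh38.p14). The replicates differed beyond counting noise (chi-square per gene 39.4 in DMSO and 29.7 with JIB-04). A count interval covers counting error only.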

Additional observations from a re-analysis of the deposited data

Results flagged for a closer look

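Among the 250 named genes, 54 had a JIB-04 effect at 24 h that differed from that at 48 h, 32 with a lower and 22 with a higher effect at 24 h (edgeR, contrast of the effects, adjusted p from 0.00526 to 0.0492 over these genes). The values below are the log2 effect at 24 h minus that at 48 h. Of the mitochondrially encoded protein genes the differences were MT-ND6 -0.60, MT-ND3 -0.58, MT-ND2 -0.57 and MT-CO3 -0.38. Replication, mitosis and repair genes included KIF11 -0.57, KIF20A -0.55, NUSAP1 -0.52, MCM2 -0.44, MCM3 -0.44, MCM6 -0.41, RBL1 -0.41, BRCA1 -0.41 and RRM2 -0.39. Stress, iron storage and detoxification genes had FTH1 -1.06, FTL -0.53, PPP1R15A -0.93, DDIT3 -0.61, SAT1 -0.84, SQSTM1 -0.78, GSTP1 -0.42 and AKR1C2 -1.87, where AKR1C2 has close paralogs. The other lower effects were LRRC25 -2.05, TMEM183BP -1.90, MKKS -1.70, CEMIP -1.60, BCL2A1 -1.32, APOBEC3B -1.13, S100A4 -0.85, NFKBIZ -0.49, CPT2 -0.46 and FADS2 -0.42.

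Higher effects of iron, zinc and ER genes at 24 h were TFRC 0.60, STEAP3 0.49, SLC30A7 0.64, SLC39A11 0.40, DNAJB9 1.06 and SEL1L 0.32. As lists, iron uptake and storage had 2 differences higher and 2 lower, and zinc transporters and metallothioneins 2 and 1. ER chaperones had 2 higher and 0 lower, and vesicle traffic between ER and Golgi 0 and 2. Signalling and death genes had TNF 0.79, TNFRSF10B 0.28, BCL2 0.39, EGR1 0.64, RGS16 0.95, CNR1 1.14, MINAR1 1.39, C1QTNF3 1.43 and LDLRAD4 1.47. Transcription and chromatin genes had MYC 0.45, KDM6B 0.47, KMT2D 0.36, TET3 0.56, ETV6 0.42, HOXA9 0.42 and PBX3 0.56. LDLRAD4, a membrane protein, at 24 h was at 8.36 and 10.8 CPM in DMSO, 21.7 and 24.0 CPM under JIB-04; at 48 h it was at 16.3 and 14.7 and then 15.3 and 11.6 CPM. CEMIP was at 13.4 and 15 and then 34.9 and 32.8 CPM at 24 h, and at 4.97 and 5.38 and then 39.6 and 35.3 CPM at 48 h. Most of the calls in this contrast were lost without 1 of the DMSO libraries of 48 h, when 10 and 12 genes passed among all tested, and what lies behind the differences was not tested.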

How the results depend on the processing

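No named gene that passed changed sign under the alternatives run, but the balance of calls at 24 h turned, from 1058 higher and 981 lower to 555 and 824 with DESeq2 and to 941 and 985 without DMSO replicate 2 of 24 h. For JIB-04 against DMSO at 24 h, 2039 genes passed, against 0 with no GC adjustment, 1208 with limma-voom, 1100 with the replicate number as a block and 897 with the 24 h libraries alone; leaving out 1 library at a time gave 617 to 1926. The other alternatives gave 1379 (DESeq2) to 2574 (trends within groups only). For the difference between the effects, 323 genes passed, against 0 with no GC adjustment (edgeR, 798 at an unadjusted p under 0.05), 1026 with trends within groups only, 4 with limma-voom and 517 with no filter; leaving out 1 library gave 10 to 529. The cause of these changes was not tested. Where a library was left out, its lone partner was assumed to vary like the other groups.

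After the GC adjustment, the correlation of replicate differences between DMSO and JIB-04 was -0.263 at 24 h and 0.0698 at 48 h. The labels do not say what a replicate number shares, and these values cannot show whether it pairs the samples. With the replicate number as a block, 1100 genes passed at 24 h and 13 in the difference. With the numbers crossed at 24 h, a pairing added after seeing the data, 2533 and 559 passed. Of 192 named genes called at 24 h, 161 passed with the block, 156 with DESeq2, 156 with limma-voom, 118 without JIB-04 replicate 2 and 0 with no GC adjustment. The sign of the list median changed for 5 of 55 lists with no GC adjustment (polyamines, caspases, heat shock, leukaemia and megakaryocyte markers). With 2 libraries a group, changes under 1.5-fold rest on the spread shared by all groups.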

Other observations

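Genes that rose at 24 h spanned more of the genome than those that fell, with a median gene span of 53.2 kb for the 1058 higher genes, 25.4 kb for the 981 lower genes and 25.9 kb for all tested genes. Their median transcript lengths were 1367, 1044 and 1090 bases. Pseudogenes passed in 3.85% of 909 tested, 10 higher and 25 lower, and lncRNAs had 29 higher and 73 lower.

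Other gene lists are to be read beside the 13.4% of all tested genes that passed. Zinc transporters and metallothioneins had 4 of 23 higher and 1 lower, with the zinc exporter SLC30A1 rising by 0.77 ± 0.11, from 28.0 and 27.1 to 45.6 and 48.1 CPM. The heat shock list had 3 of 29 higher and 3 lower, or 1 higher and 0 lower without JIB-04 replicate 2, and HSF1, its master factor, rose by 0.36 ± 0.06. Cytosolic ribosomal proteins had 2 of 50 lower, both lost without JIB-04 replicate 2. Glycolysis and hypoxia genes had 5 of 35 higher and 5 lower, or 3 higher and 0 lower without JIB-04 replicate 2; the glucose transporter SLC2A3 rose by 0.62 ± 0.07, and VEGFA fell by 0.38 ± 0.08, with an adjusted p of 0.089 without JIB-04 replicate 2. The long noncoding RNA MALAT1 rose by 0.29 ± 0.05.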
